A study of Chlamydomonas reinhardtii with 9 samples.

Results

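The comparison described here sets cultures of the green alga Chlamydomonas reinhardtii kept for 48 h without iron against cultures kept for 24 h without iron. Its members are 4 columns of a deposited transcript table with 18 columns, 2 for 48 h and 2 for 24 h, chosen by their sampling time and paired by duplicate number. Of 17301 transcripts in the table, 13646 had a mean of at least 1 RPKM (reads scaled to the transcript's length and to all reads of the column) at 48 h or at 24 h and were tested, and 3655 were not. The tested transcript nearest to that limit had a mean of 1.0004 RPKM, and the nearest one left out had 0.99889 RPKM.

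All cultures were of strain CC-4532 (2137). They were grown to mid-logarithmic phase in Tris-acetate-phosphate medium, which supplies acetate as a carbon source, in continuous light of about 90 µmol photons per square metre and second at 24 °C. The cells were then washed in the same medium without Fe-EDTA and moved to fresh medium without it (0 µM Fe-EDTA), and the 48 h and the 24 h groups differ in the labels by sampling time alone. The other times of the course were 0, 0.5, 1, 2, 4, 8 and 12 h. The design text gives biological duplicates at each time, while the labels hold 1 sample per time. The p-values below therefore measure only the spread between duplicate columns, estimated over all 9 times together. No culture with iron at 24 or 48 h is among the columns used here, so loss of iron, culture age, cell density and use of the medium cannot be told apart. In bulk RNA, fewer cells of a kind and less RNA per cell cannot be told apart either.

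The 48 h columns held 21872409 and 33449160 counted reads and the 24 h columns 28387527 and 16248478, as worked back from the RPKM values; over all 18 columns the range was 13214882 to 33449160. Of the tested transcripts, 90.2% lay within 1.5-fold of each other in the 48 h duplicates, against 96.3% in the 24 h duplicates. A spread estimated over all times may therefore be too small for 48 h, and the p-values too low. Differences are given as log2(RPKM + 1) at 48 h minus 24 h, a scale that understates changes of low transcripts, with the standard error (SE) and the Benjamini-Hochberg adjusted p of limma-trend. Unless RPKM is named, every difference and median below is on this log2 scale. A transcript is said to have risen or fallen where the adjusted p was below 0.05 and the difference at least 2-fold.

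Iron sits in photosystem I, in the cytochromes, in ferredoxins and in many mitochondrial enzymes, and chlorophyll synthesis needs it too. Chlamydomonas takes iron up through a ferrireductase, a multicopper oxidase with its permease, and secreted iron-assimilation proteins, and its cells are known to take apart photosystem I and its antenna early in iron deficiency. On acetate the alga can live from respiration when photosynthesis is small. Cells that stop growing commonly recycle proteins and pigments, hold back the cell cycle and change their membrane lipids, which were the subject of the study.

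Between 24 and 48 h, 1053 transcripts rose, which is 7.72% of those tested, and 2120 fell, which is 15.5%. The counts given for gene lists below are to be read against these shares. At 4-fold or more the counts were 191 higher and 460 lower, and at 8-fold or more 41 higher and 118 lower. The median difference over all tested transcripts was -0.11, and setting the median of every column to the same value moved it by 0.15. With columns centred in this way 1404 transcripts (10.3%) rose and 1661 (12.2%) fell, so the excess of decreases was smaller on that scale. Symbols were given for 14.2% of the transcripts that rose, for 36.8% of those that fell and for 22.2% of those tested, so named genes speak for a small share of the increases. Transcripts with a symbol, of which 149 rose and 780 fell, thus fell more often and rose less often than all tested. Most list members carry a symbol, so an excess of decreases in a list over the share of all tested may reflect this alone.

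Most increases carried the transcript to its highest level of the whole course. Both 48 h columns lay above all 16 other columns, the 24 h columns among them, for 905 of the 1053 transcripts that rose (85.9%), and this held for 22.4% of all tested transcripts. Both 48 h columns lay below all 16 others for 1341 of the 2120 that fell (63.3%), against 14.1% of all tested transcripts. Part of this follows from the call itself, since the 24 h columns count among the 16.

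**Figure D1:**
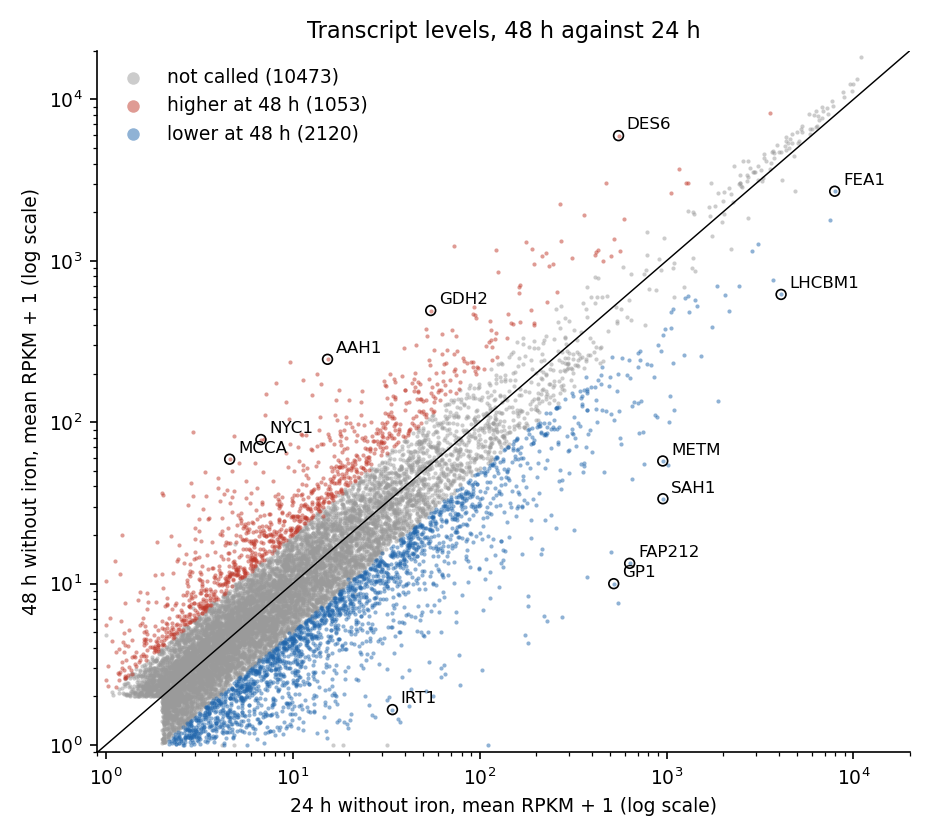
Mean RPKM + 1 of the 13646 tested transcripts at 48 h (vertical) against 24 h (horizontal), both on log axes, with the line of equality. Red points are the 1053 transcripts that rose, blue points the 2120 that fell and grey points the 10473 not called; AAH1, MCCA, NYC1, GDH2 and DES6 stand above the line, and SAH1, METM, GP1, FAP212, IRT1, LHCBM1 and FEA1 below it.

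Transcripts for the breakdown of amino acids and amines made up the list that moved up furthest. The lists were chosen with earlier results of these data known, so this rank may follow from the choice. Of the 12 tested members of this list 8 rose and 1 fell, with a median difference of 2.52, against -0.11 for all transcripts. The list took 0.0793% and 0.130% of all RPKM in the 48 h columns, against 0.0167% and 0.0171% in the 24 h columns.

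AAH1 (Cre01.g029250), an aromatic amino acid hydroxylase that turns phenylalanine into tyrosine, had 187 and 301 RPKM at 48 h, against 13.8 and 15.0 RPKM at 24 h. Its log2 difference was 3.96 ± 0.18 (SE), with an adjusted p of 1.3e-09 by limma-trend. Both 48 h columns were far above both 24 h columns, and no column before 48 h exceeded 18.9 RPKM. HPD2 (Cre02.g136100), a 4-hydroxyphenylpyruvate dioxygenase of the next steps of tyrosine breakdown, whose product homogentisate also feeds plastoquinone and tocopherol synthesis, had 221 and 377 RPKM at 48 h, against 44.3 and 44.7 RPKM at 24 h (log2 2.67 ± 0.22, adjusted p = 2.2e-07). HPD1 (Cre02.g136050), of the same description, had 1.89 and 10.2 RPKM at 48 h, against 1.87 and 1.96 RPKM at 24 h, and it was not called. Its difference was 0.97 with both 48 h columns, 0.11 without 48 h duplicate 2 and 1.82 without 48 h duplicate 1.

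Genes of branched-chain amino acid oxidation were among those that rose. MCCA (Cre13.g593500), the biotin-carrying subunit of methylcrotonyl-CoA carboxylase in leucine breakdown, had 41.8 and 74.1 RPKM at 48 h, against 3.36 and 3.84 RPKM at 24 h (log2 3.63 ± 0.14, adjusted p = 3.0e-10). Cre12.g539900, described as the E1 alpha subunit of the branched-chain keto acid dehydrogenase, had 21.3 and 48.5 RPKM at 48 h, against 3.01 and 3.62 RPKM at 24 h. Cre06.g311050, described as the E1 beta subunit, had 55.4 and 89.4 RPKM at 48 h, against 8.92 and 8.41 RPKM at 24 h. For these genes duplicate 2 stood above duplicate 1 at 48 h, and both were many times the 24 h values. BCA1 (Cre02.g081400), a branched-chain aminotransferase that removes the amino group before these steps and was picked out after its values were seen, had 14.6 and 19.3 RPKM at 48 h, against 3.51 and 3.70 RPKM at 24 h.

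The electron transfer flavoprotein, which hands electrons from acyl-CoA dehydrogenases of such pathways to the mitochondrial ubiquinone pool, rose in both subunits. ETFA (Cre16.g687950) had 64.9 and 143 RPKM at 48 h, against 7.27 and 9.73 RPKM at 24 h (log2 3.37 ± 0.18, adjusted p = 4.0e-09). ETFB (Cre27.g775600) had 52.0 and 103 RPKM at 48 h, against 5.65 and 6.42 RPKM at 24 h (log2 3.40 ± 0.18, adjusted p = 4.0e-09). ETFA stood above ETFB in each of the 4 columns, and duplicate 2 above duplicate 1.

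GDH2 (Cre05.g232150), a glutamate dehydrogenase, had 351 and 631 RPKM at 48 h, against 52.2 and 55.3 RPKM at 24 h (log2 3.11 ± 0.24, adjusted p = 1.4e-07). The highest earlier column, at 352 RPKM, came up to 48 h duplicate 1. Cre10.g423550, described as of the threonine aldolase family, had 116 and 178 RPKM at 48 h, against 11.7 and 11.7 RPKM at 24 h, a 12.5-fold difference of the means. The proline oxidase Cre16.g648350 had 20.1 and 52.7 RPKM at 48 h, against 3.21 and 4.49 RPKM at 24 h. The copper amine oxidase AMX2 (Cre01.g000650) had 72.7 and 88.2 RPKM at 48 h, against 15.8 and 13.6 RPKM at 24 h, and the flavin amine oxidase AOF2 (Cre10.g447750) had 12.2 and 21.9 RPKM at 48 h, against 2.46 and 2.93 RPKM at 24 h. The member that fell was DAL1 (Cre13.g592050), an allantoinase of purine breakdown, with 10.4 and 9.27 RPKM at 48 h, against 20.4 and 21.3 RPKM at 24 h; its difference of -1.01 lay at the 2-fold limit; it was -0.86 with columns centred, -0.93 without 48 h duplicate 2 and -0.98 without 24 h duplicate 2, and not called in these cases.

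AGT3 (Cre16.g650650), an alanine-glyoxylate aminotransferase by its name, had 13.6 and 28.6 RPKM at 48 h, against 1.70 and 2.29 RPKM at 24 h (log2 2.80 ± 0.22), and AGT1 and AGT2 differed by 1.80 ± 0.18 and 1.76 ± 0.20. SGA1a (Cre01.g005150), a serine-glyoxylate aminotransferase picked out after its values were seen, had 492 and 545 RPKM at 48 h, against 108 and 76.1 RPKM at 24 h. Of the 16 tested members of the photorespiration list 3 rose and 1 fell, with a median of 0.49. Glutamine synthetases, which take ammonium back up, differed in level: GLN2 (Cre12.g530650) had 4579 and 3191 RPKM at 48 h, against 2551 and 2042 RPKM at 24 h, and was not called at 0.74 ± 0.08, while GLN3 (Cre12.g530600) rose at far lower levels, with 4.01 and 4.99 RPKM at 48 h, against 0.818 and 0.415 RPKM at 24 h.

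**Figure D2:**
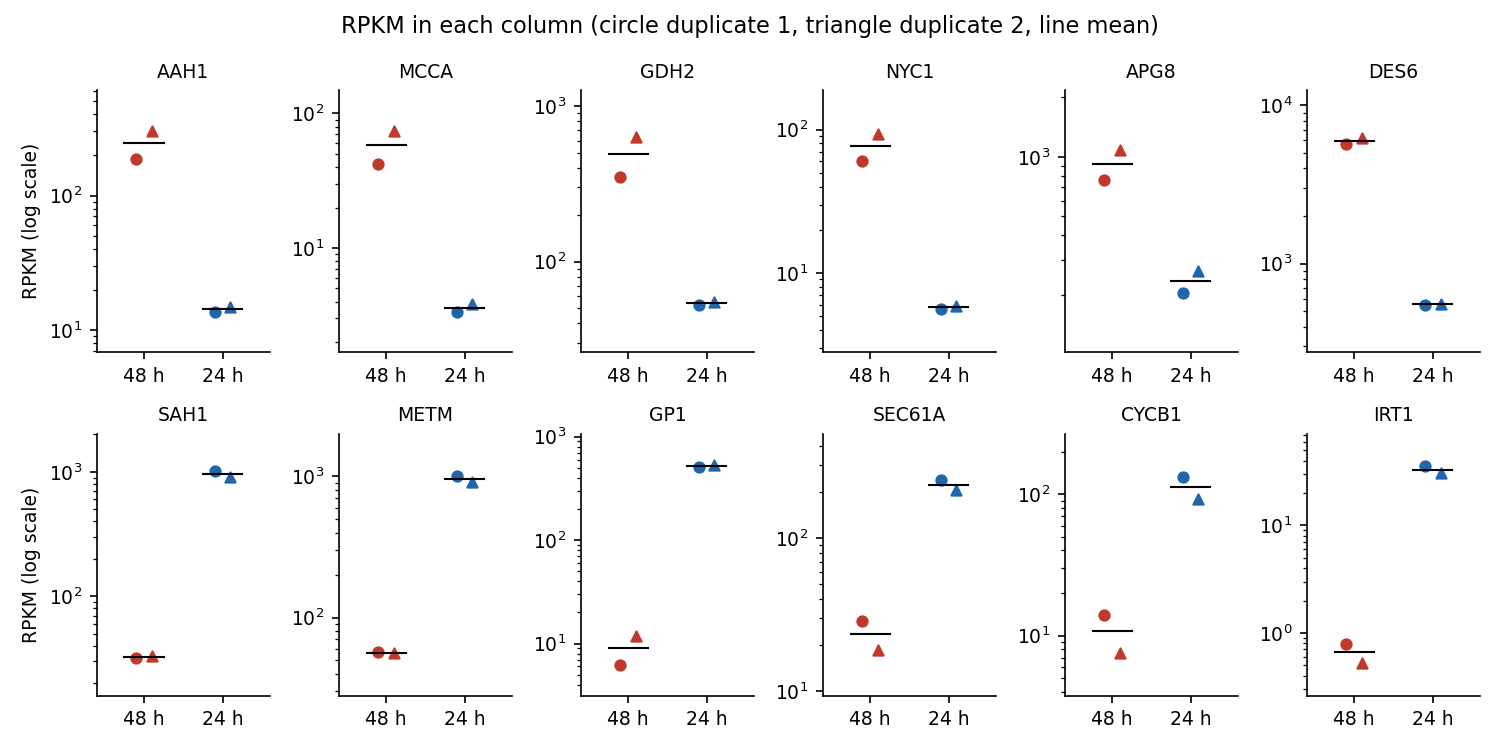
RPKM of 12 genes in each column on log axes, 48 h left of 24 h, with circles for duplicate 1, triangles for duplicate 2 and a line at the mean. AAH1, MCCA, GDH2, NYC1, APG8 and DES6 in the upper row were higher in both 48 h columns, and SAH1, METM, GP1, SEC61A, CYCB1 and IRT1 in the lower row were lower in both.

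NYC1 (Cre12.g517700), a chlorophyll b reductase that starts the breakdown of chlorophyll b, had 60.5 and 93.5 RPKM at 48 h, against 5.6 and 5.92 RPKM at 24 h (log2 3.50 ± 0.21, adjusted p = 1.2e-08), and no earlier column exceeded 11.8 RPKM. APG8 (Cre16.g689650), the ubiquitin-like protein that coats autophagosomes, had 764 and 1085 RPKM at 48 h, against 205 and 266 RPKM at 24 h (log2 1.96 ± 0.12, adjusted p = 1.7e-08). APG3 (Cre02.g102350), which conjugates APG8 to lipid, had 65.3 and 124 RPKM at 48 h, against 20.5 and 25.4 RPKM at 24 h. These were the 2 of 6 tested autophagy genes that rose; the list median was 0.87.

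Among proteases, the cysteine endopeptidases CEP2 (Cre05.g247800) and CEP5 (Cre41.g786400) and the vacuolar processing enzyme VPE1 (Cre12.g483550) rose by 1.29 ± 0.10, 1.33 ± 0.14 and 1.19 ± 0.11 log2 units. They were picked out after their values were seen, and the other genes of these kinds were not counted. CEP2 had 559.8 and 721 RPKM at 48 h, against 243 and 275 RPKM at 24 h. Of 27 tested organelle proteases 5 rose and 5 fell, with a median of -0.09 that turned to 0.06 with columns centred. DEG1A, DEG1C and DEG9, which are DegP-type proteases, and CLPX, the unfolding subunit of a Clp protease, were among those that rose, with differences of 1.31, 1.57 and 1.62 for the first 3. CLPX (Cre16.g663350) had 48.8 and 56.8 RPKM at 48 h, against 16.6 and 19.6 RPKM at 24 h. DEG9 (Cre14.g617600) had 91.9 and 119.7 RPKM at 48 h, against 37.8 and 29.8 RPKM at 24 h, and its mean at 12 h had been 3.90 RPKM.

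Lipid genes moved in opposite directions. DES6 (Cre13.g590500), the plastid omega-6 desaturase that puts a second double bond into plastid fatty acids, had 5714 and 6201 RPKM at 48 h, against 551 and 554 RPKM at 24 h. It had the highest level among genes with a symbol that rose. Its difference was 3.43 ± 0.10 (SE), with an adjusted p of 4.6e-11 by limma-trend. The duplicates were close to each other at both times, and the mean at 12 h had been 3671 RPKM, so the 24 h value was a low point in the course. FAD7 (Cre01.g038600), a plastid omega-3 desaturase that acts on the product of DES6, had 19.8 and 15.9 RPKM at 48 h, against 111 and 92.3 RPKM at 24 h (log2 -2.45 ± 0.16, adjusted p = 2.8e-08). Cre17.g711150, described as a delta-12 desaturase and picked out after its values were seen, had 0.985 and 1.09 RPKM at 48 h, against 15.6 and 14.8 RPKM at 24 h.

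BTA1 (Cre07.g324200), which makes the betaine lipid that takes the place of phosphatidylcholine in this alga, had 8.74 and 6.34 RPKM at 48 h, against 83.3 and 76.3 RPKM at 24 h. Its difference was -3.25 ± 0.15, with an adjusted p of 1.9e-09. SQD1 (Cre16.g656400), of sulfolipid synthesis, had 33.2 and 24.5 RPKM at 48 h, against 90.1 and 74.1 RPKM at 24 h. These were the 2 of 9 tested membrane lipid genes that fell, and the list median was -0.0047 (0.14 with columns centred), with none risen. The 2 are 22.2% of the list, against 15.5% of all tested. Of the genes described as triacylglycerol lipases, 2 that rose were picked out after their values were seen. How many genes carry this description, and how many of them fell or were not called, was not counted. LIPG2 (Cre12.g498750) had 24.4 and 30.9 RPKM at 48 h, against 5.25 and 5.55 RPKM at 24 h, and CGLD15 (Cre03.g193500) had 74.0 and 93.5 RPKM at 48 h, against 14.7 and 14.3 RPKM at 24 h. The lipase gene PGD1 (Cre07.g344600) was lower and not called, at -0.96 ± 0.09; it passed the limit at -1.21 and -1.08 with pseudocounts of 0.1 and 0.5, at -1.04 with columns scaled to an equal sum and at -1.02 without 48 h duplicate 1. For fatty acid beta-oxidation, ATO1 (Cre17.g723650), a thiolase, and ECH1 (Cre03.g190850), an enoyl-CoA hydratase, differed by 1.30 ± 0.14 and 1.38 ± 0.12, and both rose.

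Carbon metabolism held pairs of related genes that moved apart. FBA1 (Cre01.g006950), a fructose-bisphosphate aldolase, had 722 and 983 RPKM at 48 h, against 109 and 138 RPKM at 24 h (log2 2.77 ± 0.09, adjusted p = 1.0e-10). It was the 1 of 21 Calvin cycle genes that rose, while 7 fell and the list median was -0.62. Among those that fell, PRK1 (Cre12.g554800), phosphoribulokinase, had 93.2 and 84.2 RPKM at 48 h, against 377 and 399 RPKM at 24 h, and PGK1 (Cre22.g763250), phosphoglycerate kinase, had 74.6 and 65.4 RPKM at 48 h, against 305 and 347 RPKM at 24 h. RBCS1 (Cre02.g120100), a small subunit of Rubisco with a near-identical copy, had 853 and 533 RPKM at 48 h, against 2512 and 2383 RPKM at 24 h. That the 48 h and 24 h values of these genes do not overlap is nearly given by their call and says nothing further about them. The share of all tested transcripts without overlap was not counted.

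Of 23 tested starch genes 4 rose and 6 fell. The beta-amylases AMYB1 and AMYB2 and the alpha-amylase AMYA1, which degrade starch, rose by 1.53, 1.24 and 1.12 log2 units, and so did the starch synthase SSS2, by 2.05. The alpha-amylase AMYA2 and the starch phosphorylase PHOA fell, with differences of -1.85 and -2.18. Of 23 genes for acetate use and the tricarboxylic acid cycle 4 rose, among them malate synthase MAS1 (Cre01.g057800) of the glyoxylate cycle, with 864 and 1126 RPKM at 48 h, against 416 and 492 RPKM at 24 h, and 5 fell. Phosphoenolpyruvate carboxykinase PCK1b (Cre02.g141400), of gluconeogenesis, had 1064 and 1281 RPKM at 48 h, against 426 and 427 RPKM at 24 h. Its mean at 12 h had been 1322 RPKM, near the 48 h level. The isocitrate dehydrogenase genes split: IDH2 (Cre02.g143250) had 15.6 and 12.1 RPKM at 48 h, against 89.1 and 77.9 RPKM at 24 h, while IDH3 (Cre04.g214500) had 259 and 246 RPKM at 48 h, against 136 and 109 RPKM at 24 h. The IDH3 difference of 1.04 was just past 2-fold; it was 0.96 without 48 h duplicate 2 and 0.99 without 24 h duplicate 2, and then not called.

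Of 31 tested genes linked to inorganic carbon supply 5 rose and 4 fell, with a median of 0.10, and 9 rose with columns centred. LCI30 (Cre12.g507300) and LCI24 (Cre03.g179800), named as low-CO2-inducible genes, had the highest levels among those that rose. LCI30 had 2029.8 and 1838 RPKM at 48 h, against 348 and 371 RPKM at 24 h. LCI24 had 1024 and 1615 RPKM at 48 h, against 257 and 287 RPKM at 24 h. LCIB and LCIC, which form a complex near the pyrenoid, had differences of 1.16 ± 0.35 and 1.05 ± 0.29, close to the limit. LCIC was at 0.99 and not called without 24 h duplicate 2. LCIB was not called without the replicate block (adjusted p = 0.067), without 24 h duplicate 2 (1.08, adjusted p = 0.058) or without 48 h duplicate 1 (1.09, adjusted p = 0.054), all by limma-trend. LCIB had 271 and 164 RPKM at 48 h, against 122 and 72.2 RPKM at 24 h, with duplicate 1 above duplicate 2 at both times and earlier columns of up to 2635 RPKM. The list took 0.718% and 0.689% of all RPKM in the 48 h columns, against 0.349% and 0.304% in the 24 h columns.

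The transcripts of photosystem I and of both light-harvesting antennas fell further from levels that were already lower at 24 h than at 12 h. Of 10 tested core genes of photosystem I 8 fell and none rose (median -2.05), all 9 antenna genes of photosystem I fell (median -2.35), and of 7 tested LHCBM genes, which encode the main antenna of photosystem II, 6 fell (median -1.73). The 15 tested photosystem II and minor antenna genes held 5 that fell, with a median of -0.61. With columns centred the counts were 8, 9, 5 and 5. The core list of photosystem I took 0.181% and 0.174% of all RPKM in the 48 h columns, against 0.579% and 0.667% in the 24 h columns. Its antenna took 0.0337% and 0.0446% of all RPKM in the 48 h columns, against 0.196% and 0.261% in the 24 h columns. The duplicates of 48 h were closer to each other than to any 24 h column in both sums.

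Of the antenna genes of photosystem I, LHCA1 (Cre06.g283050) had 28.2 and 46.6 RPKM at 48 h, against 234 and 307 RPKM at 24 h (log2 -2.85 ± 0.15, adjusted p = 4.4e-09), after a mean of 2916 RPKM at 12 h. PSAE (Cre10.g420350), a core subunit on the ferredoxin side, had 128 and 91.9 RPKM at 48 h, against 883 and 849 RPKM at 24 h (log2 -2.98 ± 0.09, adjusted p = 5.2e-11). PSAF, on the plastocyanin side, was not called, at -0.93 ± 0.08, and passed the limit at -1.09 without 48 h duplicate 1. PSAN, on the same side, had 67.8 and 127 RPKM at 48 h, against 109.7 and 125 RPKM at 24 h, overlapping between the times, with a difference of -0.33 that became 0.10 without 48 h duplicate 1. LHCBM5 (Cre03.g156900) had 65.6 and 41.3 RPKM at 48 h, against 1014 and 1019 RPKM at 24 h, the largest decrease of the antenna lists at -4.26 ± 0.13. LHCBM8, the member not called, had 1.26 and 5.22 RPKM at 48 h, against 3.38 and 3.64 RPKM at 24 h, and its difference of -0.26 became 0.47 without 48 h duplicate 1. LHCBM genes are near-identical copies, so the split of reads among them is uncertain.

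In photosystem II, PSBO (Cre02.g132800), a lumen subunit of the oxygen-evolving complex, had 444 and 308 RPKM at 48 h, against 1068 and 899.9 RPKM at 24 h, while PSBR (Cre06.g261000), another lumen subunit, had 4373 and 3932 RPKM at 48 h, against 2976 and 2455 RPKM at 24 h, and was not called at 0.62 ± 0.09. The minor antenna genes also differed in size: LHCB5 changed by -2.31 ± 0.08 and fell, and LHCB4, at -0.86 ± 0.07, was not called. Among electron carriers, plastocyanin PCY1 (Cre03.g182551) had 2002 and 1589 RPKM at 48 h, against 7274 and 7765 RPKM at 24 h, and ferredoxin-NADP reductase FNR1 (Cre11.g476750) had 57.4 and 45.3 RPKM at 48 h, against 228 and 216 RPKM at 24 h; 10 of 20 tested carriers and ATP synthase genes fell. PTOX1 (Cre07.g350750), a plastid terminal oxidase, which passes electrons from plastoquinone to oxygen, was the 1 that rose, with 296 and 347 RPKM at 48 h, against 121 and 106 RPKM at 24 h. Its namesake PTOX2 (Cre03.g172500) was tested and not called.

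Of 26 tested genes of chlorophyll and heme synthesis 14 fell and none rose (median -1.10), and 12 fell with columns centred. CRD1 (Cre07.g346050), the diiron cyclase of chlorophyll synthesis, had 8.10 and 10.1 RPKM at 48 h, against 56.5 and 86.7 RPKM at 24 h (log2 -2.82 ± 0.13, adjusted p = 1.7e-09). GSA (Cre03.g158000), which makes 5-aminolevulinate, the common precursor, had 18.4 and 17.5 RPKM at 48 h, against 109.8 and 125 RPKM at 24 h. The magnesium chelatase subunit CHLH1 and the protochlorophyllide reductase POR fell by 2.22 and 1.79 log2 units. HEMA (Cre07.g342150), the glutamyl-tRNA reductase one step before GSA, had 68.8 and 60.6 RPKM at 48 h, against 57.3 and 59.6 RPKM at 24 h, and the heme oxygenase HMOX1 (Cre10.g423500) had 106 and 129 RPKM at 48 h, against 106 and 118 RPKM at 24 h; neither was called. Of 8 carotenoid genes 3 fell, and beta-carotene hydroxylase CHYB (Cre04.g215050) had 2.98 and 2.30 RPKM at 48 h, against 23.6 and 20.6 RPKM at 24 h. Among photoprotection genes LHCSR1 (Cre08.g365900), whose family has close copies, had 0.504 and 0.424 RPKM at 48 h, against 11.6 and 7.86 RPKM at 24 h, and the early light-inducible ELI4 (Cre02.g143550) rose, with 64.4 and 47.0 RPKM at 48 h, against 28.5 and 18.9 RPKM at 24 h.

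**Figure D3:**
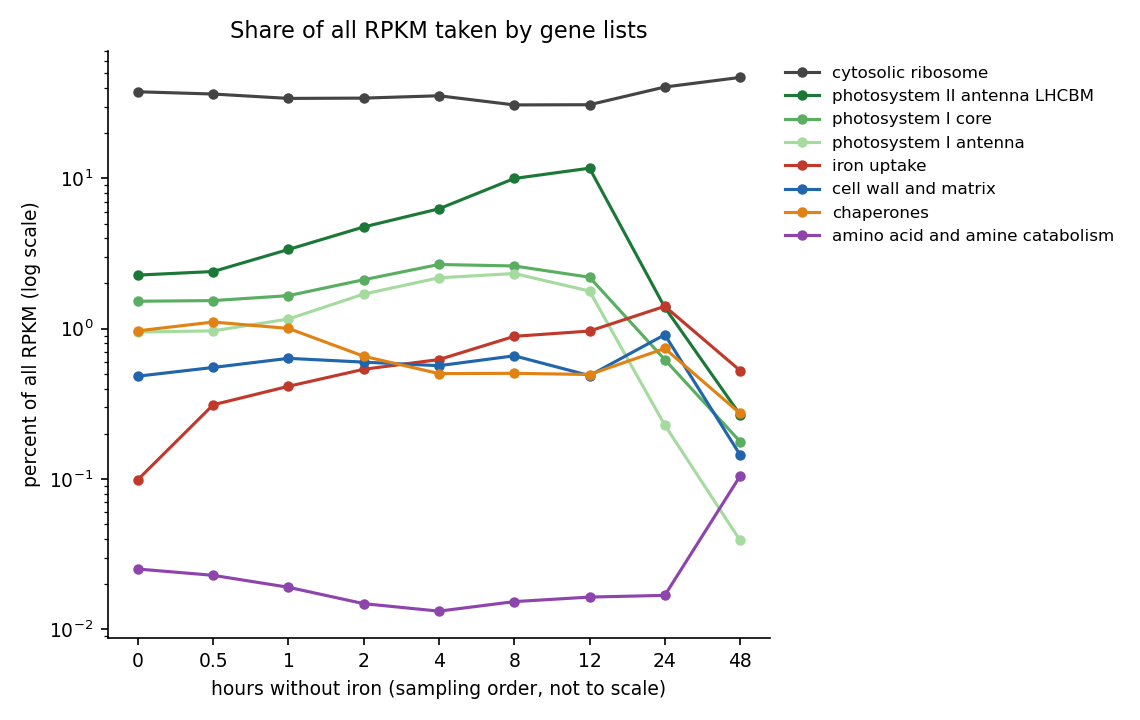
Percent of all RPKM taken by 8 gene lists, mean of the columns at each of 9 times in sampling order, on a log axis. The lists of photosystem I, LHCBM, iron uptake, cell wall and chaperones were lower at 48 h than at 24 h, the amino acid and amine list was higher and the cytosolic ribosome took the largest share throughout.

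Of 7 tested iron uptake genes 4 fell and none rose (median -1.13), and 3 fell with columns centred. The list took 0.576% and 0.478% of all RPKM in the 48 h columns, against 1.39% and 1.43% in the 24 h columns. IRT1 (Cre12.g530400), a ZIP-type transporter, had 0.795 and 0.520 RPKM at 48 h, against 35.5 and 30.8 RPKM at 24 h, from reads of 29 and 29 at 48 h against 1680 and 835 at 24 h. Its difference was -4.37 ± 0.47, with an adjusted p of 2.5e-06, and the 48 h columns were back at the level of the 0 h columns (48 h minus 0 h, -0.11).

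FRE1 (Cre04.g227400), the ferrireductase, had 451 and 599.9 RPKM at 48 h, against 1151 and 1741 RPKM at 24 h (log2 -1.44 ± 0.22, adjusted p = 6.6e-05). FEA1 (Cre12.g546550), a secreted iron-assimilation protein and the uptake gene with the highest RPKM at both times, had 3086 and 2305 RPKM at 48 h, against 8159 and 7706 RPKM at 24 h (log2 -1.57 ± 0.37, adjusted p = 0.002). FTR1 (Cre03.g192050), the iron permease, had 507 and 452 RPKM at 48 h, against 970.4 and 1139.7 RPKM at 24 h, and its difference of -1.13 was -0.99, short of the 2-fold limit, with columns centred and -0.92 after quantile normalization. Its partner, the multicopper oxidase FOX1 (Cre09.g393150), had 721 and 601 RPKM at 48 h, against 912 and 844 RPKM at 24 h, and was not called at -0.41 ± 0.13. FOX2 (Cre12.g531200) was higher but not called, with 19.2 and 19.2 RPKM at 48 h, against 10.6 and 10.8 RPKM at 24 h, and NRAMP1 (Cre17.g707700), a metal transporter, overlapped between the times and was not called at 0.15 ± 0.19. Unlike IRT1, the genes FRE1, FTR1, FEA1 and FOX1 stood above the 0 h columns at 48 h by 8.76, 2.44, 2.42 and 2.94 on the log2 scale.

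The ferritin genes, which encode iron storage, moved apart. FER1 (Cre09.g387800) had 639 and 505 RPKM at 48 h, against 1484 and 1344 RPKM at 24 h, and fell (log2 -1.31 ± 0.17), while FER2 (Cre13.g574500) had 43.4 and 50.7 RPKM at 48 h, against 23.8 and 24.0 RPKM at 24 h, and was just short of the limit (log2 0.94 ± 0.09), which it passed at 1.09 with columns centred, at 1.17 after quantile normalization and at 1.02 without 48 h duplicate 1. FER1 was the 1 of 16 tested storage and iron-sulfur assembly genes that fell, and none rose; the list median was 0.27. With columns centred 2 rose and 1 fell, and the median was 0.42. ISU1, an iron-sulfur scaffold, was not called at 0.82 ± 0.11. MSD3 (Cre16.g676150), a manganese superoxide dismutase, had 144 and 117 RPKM at 48 h, against 629.9 and 769.6 RPKM at 24 h (log2 -2.41 ± 0.25), and the heme enzyme catalase CAT1 (Cre09.g417150) had 354 and 484 RPKM at 48 h, against 158 and 168 RPKM at 24 h (log2 1.34 ± 0.15). Of 46 tested redox genes 3 rose and 16 fell.

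Of 11 tested genes for copper, zinc and manganese 6 fell and none rose. Among those that fell were the copper transporters CTR1 and CTR2 (-1.47 and -1.69), the metal transporter MTP1 (-1.35) and the copper chaperone ATX1 (-1.23). Of 22 tested genes of nitrogen supply and assimilation 2 rose and 4 fell, with a median of -0.05 (0.10 with columns centred). These are 9.1% and 18.2% of the list, near the 7.72% and 15.5% of all tested. Of 9 tested phosphate supply genes 1 rose and 3 fell. The 1 that rose was PTB8 (Cre01.g066900), with 4.46 and 4.00 RPKM at 48 h, against 1.09 and 1.01 RPKM at 24 h, and it was not called with a pseudocount of 5. Among those that fell, the phosphate transporter PTA3 (Cre16.g686750) had 0.301 and 0.394 RPKM at 48 h, against 19.0 and 18.3 RPKM at 24 h, and PTB4 (Cre02.g144750) had 27.6 and 18.8 RPKM at 48 h, against 144 and 132 RPKM at 24 h. Of 26 tested sulfur genes 1 rose and 7 fell. The 1 that rose was ATS1 (Cre03.g203850), of sulfate activation, with 1965 and 1656 RPKM at 48 h, against 581 and 596 RPKM at 24 h. Among those that fell, ARS5 (Cre10.g431800), an arylsulfatase by its name, had 2.86 and 2.54 RPKM at 48 h, against 33.2 and 34.1 RPKM at 24 h.

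The methyl cycle, which regenerates methionine and S-adenosylmethionine, the donor of most methyl groups, fell sharply at 3 steps. SAH1 (Cre03.g204250), the hydrolase that clears S-adenosylhomocysteine, had 31.8 and 33.3 RPKM at 48 h, against 1007 and 903 RPKM at 24 h. Its difference was -4.83 ± 0.14 (SE), a 29.3-fold lower mean, with an adjusted p of 5.7e-11, and no earlier column was under 826 RPKM. METM (Cre06.g250200), S-adenosylmethionine synthetase, had 57.1 and 55.9 RPKM at 48 h, against 999 and 907 RPKM at 24 h (log2 -4.05 ± 0.09, adjusted p = 1.2e-11). METE (Cre03.g180750), the cobalamin-independent methionine synthase, had 13.8 and 16.6 RPKM at 48 h, against 113 and 151 RPKM at 24 h (log2 -3.02 ± 0.21, adjusted p = 4.5e-08). SAH1 and METM had nearly the same level in each 24 h column and were both low in both 48 h columns. THI4a (Cre04.g214150), of thiazole synthesis for thiamine, picked out after its values were seen, had 153 and 82.0 RPKM at 48 h, against 1260.1 and 922 RPKM at 24 h.

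Cell wall and matrix genes held most of the largest decreases among genes with a symbol. Of 64 tested members 28 fell and 3 rose, with a median of -0.72, and the list took 0.156% and 0.134% of all RPKM in the 48 h columns, against 0.842% and 0.982% in the 24 h columns. GP1 (Cre09.g398900), a hydroxyproline-rich glycoprotein of the vegetative wall, had 6.26 and 11.7 RPKM at 48 h, against 509.8 and 532 RPKM at 24 h (log2 -5.76 ± 0.20, adjusted p = 1.7e-10). ISG-C2 (Cre16.g693550), described as a hydroxyproline-rich wall protein, had 2.15 and 4.48 RPKM at 48 h, against 147 and 215 RPKM at 24 h (log2 -5.43 ± 0.19). PHC21 (Cre02.g094450), a pherophorin, had 8.52 and 11.4 RPKM at 48 h, against 330.2 and 423 RPKM at 24 h (log2 -5.11 ± 0.18). In each of these genes every 48 h column was under every 24 h column by a wide margin, as follows from their choice among the largest decreases.

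The pherophorins PHC22, PHC25, PHC19 and PHC4 and the hydroxyproline-rich GAS28, VSP3 and ISG-C3 fell too, with differences of -5.13, -5.19, -4.56, -4.55, -5.26, -4.57 and -4.74. Pherophorins form a family with similar sequences, so reads may be shared among members. The members that rose were MMP4, a matrix metalloprotease that acts on wall proteins, and ELG34 and ELG6, named for exostosin-like glycosyltransferases, by 1.81, 1.28 and 1.23 log2 units; MMP4 and ELG6 were not called with a pseudocount of 5.

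Genes named for protein entry into the endoplasmic reticulum were among the decreases. SEC61A (Cre03.g171350), the pore subunit of the translocon, had 28.6 and 18.7 RPKM at 48 h, against 239 and 205 RPKM at 24 h (log2 -3.20 ± 0.16, adjusted p = 3.4e-09). SEC61B and SEC61G, its small subunits, differed by -2.43 ± 0.15 and -3.10 ± 0.16. Cre05.g244950, described as the beta subunit of the translocon-associated protein, had 19.3 and 9.15 RPKM at 48 h, against 239.6 and 186 RPKM at 24 h, and Cre17.g741000, described as its alpha subunit, had 32.7 and 18.4 RPKM at 48 h, against 259 and 222 RPKM at 24 h.

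CRT2 (Cre01.g038400), a calreticulin, had 104 and 66.8 RPKM at 48 h, against 844 and 650.0 RPKM at 24 h (log2 -3.13 ± 0.12). BIP1 (Cre02.g080700), the lumenal HSP70, had 98.1 and 60.3 RPKM at 48 h, against 635 and 493 RPKM at 24 h. HSP90B (Cre02.g080650), the lumenal HSP90, had 15.2 and 9.71 RPKM at 48 h, against 139 and 119.7 RPKM at 24 h. For these genes duplicate 2 was lower than duplicate 1 at 48 h, and both were under the 24 h columns. RB60, a protein disulfide isomerase, differed by -3.00 ± 0.13. Of 75 tested chaperones 31 fell and 4 rose (median -0.72), and the mitochondrial HSP70C and CPN60C were among those that fell (-2.79 and -2.69). The small heat shock gene HSP22C (Cre01.g060000), with close copies, rose, with 16.2 and 65.4 RPKM at 48 h, against 1.32 and 2.39 RPKM at 24 h. Of 105 tested vesicle traffic genes 20 fell and 2 rose, with a median of -0.14 that turned to 0.01 with columns centred. These are 19.05% and 1.9% of the list, against 15.5% and 7.72% of all tested. Outside that list, the R-SNARE gene VMPL2 (Cre04.g214750) rose, with 44.5 and 64.5 RPKM at 48 h, against 4.37 and 6.14 RPKM at 24 h (log2 3.14 ± 0.13).

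**Figure D4:**
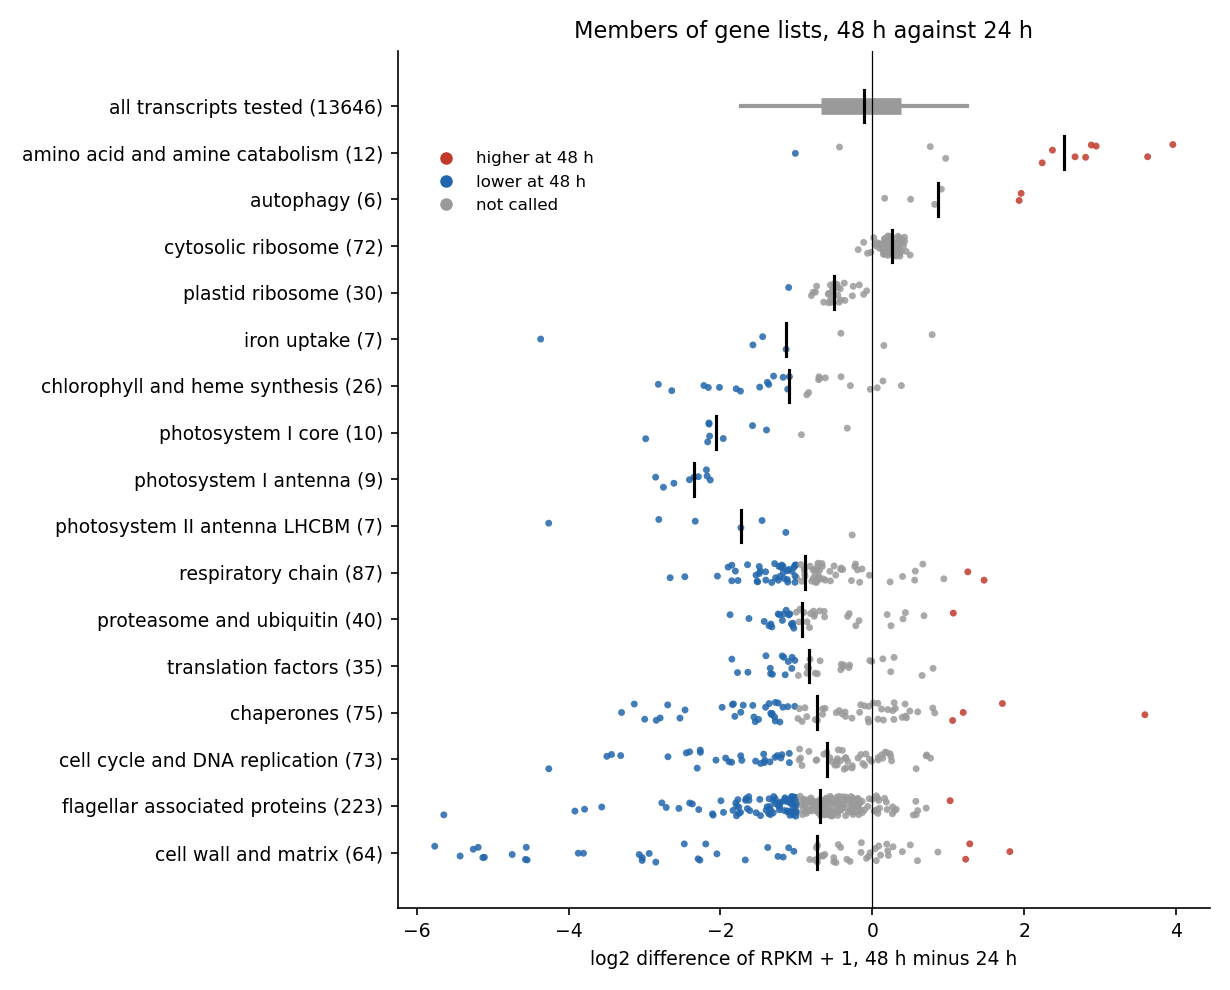
Difference of log2(RPKM + 1), 48 h minus 24 h, for every tested member of 16 gene lists, with red points for genes that rose, blue for genes that fell, grey for genes not called and a black line at each list's median. The top row gives all 13646 tested transcripts by their 25th to 75th (thick) and 5th to 95th (thin) percentiles; amino acid and amine catabolism has its median at 2.52 and photosystem I antenna at -2.35.

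Of 73 tested genes of the cell cycle and DNA replication 28 fell and none rose (median -0.60). CYCB1 (Cre08.g370400), a mitotic cyclin, had 14.0 and 7.52 RPKM at 48 h, against 133 and 92.7 RPKM at 24 h (log2 -3.31 ± 0.16, adjusted p = 1.9e-09). CYCA1 (Cre03.g207900), an A-type cyclin, had 5.24 and 2.84 RPKM at 48 h, against 55.9 and 48.2 RPKM at 24 h. The plant-type mitotic kinase CDKB1 (Cre08.g372550) had 5.73 and 1.84 RPKM at 48 h, against 53.6 and 43.6 RPKM at 24 h. In each of these genes 48 h duplicate 2 was the lowest of the 4 columns.

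ALK3 (Cre12.g498650), an aurora-like kinase, had 1.28 and 1.14 RPKM at 48 h, against 34.4 and 49.6 RPKM at 24 h (log2 -4.26 ± 0.18), and WEE1 and the replication helicase subunit MCM2 fell by 2.69 and 2.45 log2 units. At 12 h these transcripts had been low as well: CYCB1 had a mean of 18.7 RPKM, CYCA1 4.93 RPKM and ALK3 3.87 RPKM. Of the genes for plastid division, MIND1 (Cre12.g522950), MINE1 (Cre17.g720350) and FTSZ2 (Cre15.g646150), picked out after their values were seen, fell by 3.82, 3.69 and 3.01 log2 units. Other plastid division genes were not counted. MIND1, which places the plastid division ring, had 7.11 and 2.46 RPKM at 48 h, against 76.3 and 71.8 RPKM at 24 h.

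Of 223 tested flagellar associated proteins 77 fell and 1 rose (median -0.69), with 51 lower when columns were centred, and of 68 genes of the axoneme and intraflagellar transport 24 fell (median -0.82). FAP212 (Cre02.g077850) had 8.19 and 16.5 RPKM at 48 h, against 596 and 671 RPKM at 24 h (log2 -5.64 ± 0.25, adjusted p = 1.2e-09). FAP24 (Cre02.g081050) and FAP102 (Cre09.g394200) differed by -3.92 ± 0.18 and -3.79 ± 0.15. The 1 that rose was FAP165, with 1.17 and 2.04 RPKM at 48 h, against 0.243 and 0.283 RPKM at 24 h; its difference of 1.02 was at the limit, and it was 0.80 and not called without 48 h duplicate 2. The outer dynein arm gene ODA6 and the transport gene IFT172 fell by 1.78 and 1.69 log2 units. Of 5 tested tubulin genes, which are of different kinds, TUA2 and TUB2 fell. TUA2 (Cre04.g216850) had 717 and 509 RPKM at 48 h, against 2217 and 1907 RPKM at 24 h. TUB2 (Cre12.g549550) had 69.8 and 39.6 RPKM at 48 h, against 384 and 336 RPKM at 24 h. Each may share reads with a near-identical copy of its own kind.

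Of 87 tested members of the respiratory chain list 38 fell and 2 rose (median -0.89), and 28 fell with columns centred. The list is not purely mitochondrial, since NDA2 and CYC4 are also in the list of plastid electron carriers. ATP1A (Cre02.g116750), the alpha subunit of the mitochondrial ATP synthase, had 59.0 and 36.4 RPKM at 48 h, against 301 and 296 RPKM at 24 h (log2 -2.66 ± 0.15, adjusted p = 7.7e-09). ATP2, the beta subunit, and ATP9A, of the membrane ring, fell by 2.04 and 2.47 log2 units. The genes that rose, NDA3 (Cre05.g232200) and NDA7 (Cre27.g775750), encode type II NADH dehydrogenases, single-protein enzymes that do not pump protons. NDA3 had 118 and 112 RPKM at 48 h, against 49.9 and 44.9 RPKM at 24 h (log2 1.26 ± 0.14). NDA7 had 2.89 and 12.1 RPKM at 48 h, against 1.38 and 1.80 RPKM at 24 h, and its difference of 1.47 was 0.64 and not called without 48 h duplicate 2.

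Genes linked to anaerobic metabolism held both directions. Of 8 tested fermentation genes 3 rose and 2 fell. HYDEF (Cre06.g296750), an assembly factor of the iron-only hydrogenase, had 15.3 and 20.6 RPKM at 48 h, against 1.91 and 2.06 RPKM at 24 h, and rose. The hybrid cluster protein HCP2 (Cre02.g129550) had 66.9 and 61.3 RPKM at 48 h, against 19.5 and 15.0 RPKM at 24 h. HCP4 (Cre09.g391650), of the same family, had 4.35 and 5.44 RPKM at 48 h, against 0.133 and 0.290 RPKM at 24 h. HCP2 and HCP4 rose, and HCP4 was not called with a pseudocount of 5. The pyruvate-ferredoxin oxidoreductase PFR1 (Cre11.g473950) had 0.307 and 0.304 RPKM at 48 h, against 1.86 and 3.44 RPKM at 24 h. FDX5 (Cre17.g700950), a ferredoxin, had 0.0400 and 0.340 RPKM at 48 h, against 3.97 and 8.18 RPKM at 24 h, the first of these from 1 read.

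None of the 72 tested genes of the cytosolic ribosome was called in either direction by limma-trend, and 54 were higher at an unadjusted p below 0.05, against 4109 of all 13646 tested transcripts. At an adjusted p below 0.05 and any fold 51 of the 72 were higher, against 29.2% of all tested. The list median was 0.26 (0.41 with columns centred, 0.03 after quantile normalization). Together they took 47.2% and 46.4% of all RPKM in the 48 h columns, against 41.4% and 39.5% in the 24 h columns. RPL3 (Cre10.g417700) had 8872 and 7410.0 RPKM at 48 h, against 6145 and 5361 RPKM at 24 h, a difference of 0.50 ± 0.06. The percentages are shares of summed RPKM, not of reads, while RPKM is scaled to all reads of the column. A larger share of reads for these genes would lower the RPKM of all others. How much of the decreases this accounts for was not tested beyond the centred counts given above.

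Elsewhere in the translation apparatus, 14 of 35 translation factors fell and none rose (median -0.84, 9 lower when centred). Of 37 mitochondrial ribosome genes 15 fell and 1 rose. The 1 that rose was MRPL11 (Cre17.g722200), with 27.8 and 40.8 RPKM at 48 h, against 15.1 and 15.4 RPKM at 24 h; its difference of 1.09 ± 0.16 was 0.94 with a pseudocount of 5, 0.92 without 24 h duplicate 2 and 0.98 without 48 h duplicate 2, and not called in these cases. Of 16 genes of ribosome assembly and RNA polymerase I 5 fell, of 12 tRNA synthetases 4 fell, and none of either list rose. EIF3B (Cre03.g190100), a subunit of the initiation factor eIF3, had 22.4 and 17.6 RPKM at 48 h, against 80.2 and 68.6 RPKM at 24 h (log2 -1.85 ± 0.09, adjusted p = 2.3e-09). The elongation factor EFG2 fell by 1.77 log2 units and the mitochondrial ribosomal MRPS6 by 2.00. Of 30 plastid ribosome genes 1 fell, PRPL7/L12 (Cre13.g581650), with 626 and 545 RPKM at 48 h, against 1293 and 1216 RPKM at 24 h, and it was not called with columns centred. The list median was -0.51. At an adjusted p below 0.05 by limma-trend and any fold, 27 of the 30 were lower, against 40.6% of all tested.

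Of 40 tested proteasome and ubiquitin genes 17 fell and 1 rose (median -0.93, 10 lower when centred). The core subunit POA5 (Cre17.g724350) had 15.8 and 15.5 RPKM at 48 h, against 63.1 and 57.0 RPKM at 24 h. PBB1 (Cre10.g424400), a beta-ring subunit, had 25.2 and 22.3 RPKM at 48 h, against 73.2 and 77.0 RPKM at 24 h. The member that rose was UBQ7, with 2.92 and 4.81 RPKM at 48 h, against 0.952 and 1.66 RPKM at 24 h, at the limit with 1.07 ± 0.12; it was 0.92 without 48 h duplicate 2 and 0.99 without 24 h duplicate 1, and then not called. Of 13 genes of the vacuolar proton pump 7 fell, ATPvA3 by 1.48 log2 units, and 2 when centred.

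**Figure D5:**
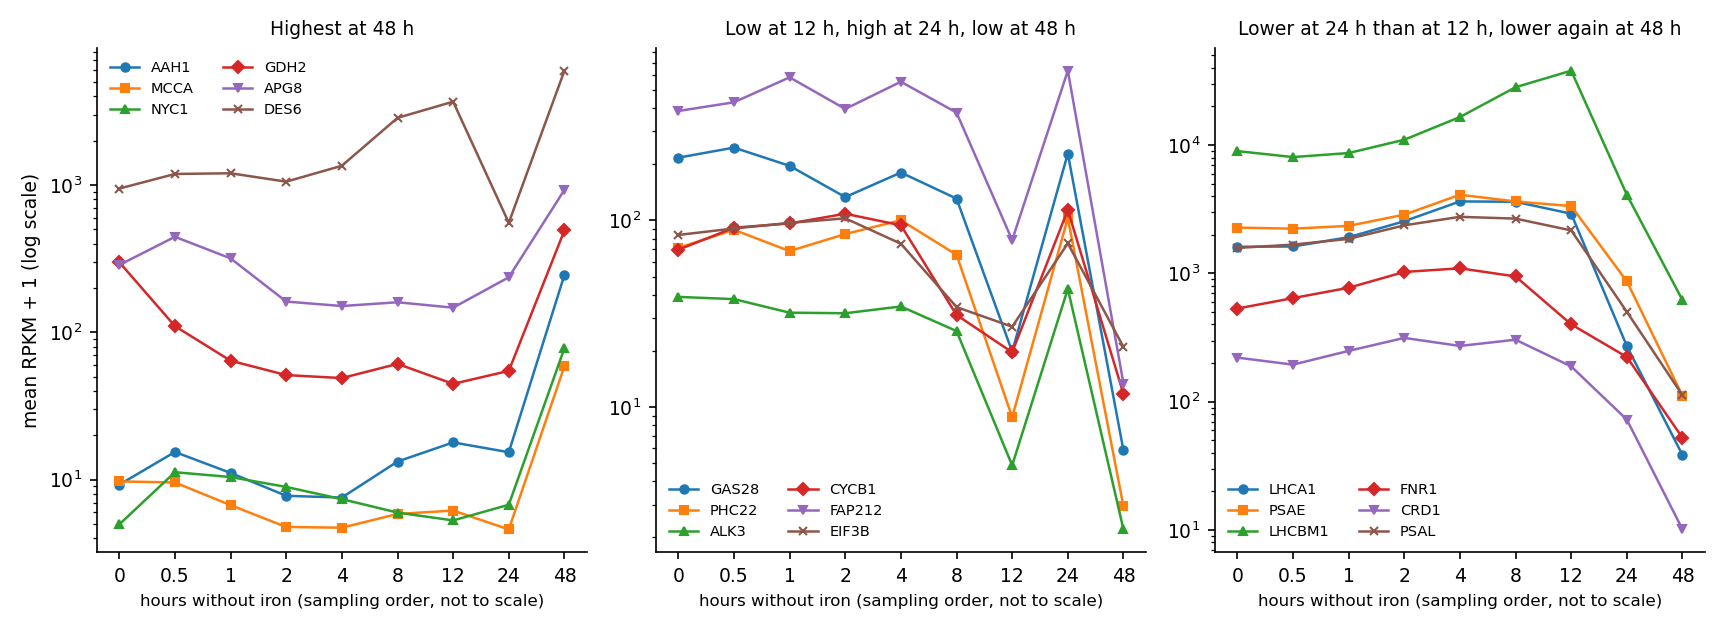
Mean RPKM + 1 (log axis) of 18 genes at 9 times without iron, in sampling order. The 6 genes on the left were highest at 48 h, the 6 in the middle were low at 12 h, high at 24 h and low at 48 h, and the 6 on the right were lower at 24 h than at 12 h and lower again at 48 h.

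The step between 24 and 48 h was also set against the step between 12 and 24 h in one contrast, in which the 24 h columns enter both steps, so that a 24 h value out of line moves the difference. This difference of steps was higher for 962 transcripts (7.05% of those tested) and lower for 4294 (31.5%) by limma-trend at the same limits. With columns centred it was higher for 2408 and lower for 2197, so its balance depends on the scaling. Before centring, all 30 plastid ribosome genes were among the lower ones, with 160 of 223 flagellar associated proteins, 58 of 68 axoneme and transport genes and 47 of 73 cell cycle genes. Counts per list with columns centred were not made. Of the plastid ribosome genes only 1 fell by at least 2-fold from 24 to 48 h. That list had mean shares of 0.258%, 1.245% and 0.831% of all RPKM at 12, 24 and 48 h.

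Individual genes show the kinds of course behind these counts. GAS28 had means of 18.8, 227 and 4.86 RPKM at 12, 24 and 48 h, and its difference of steps was -8.76 (adjusted p = 1.6e-08). FBA1 had 567, 124 and 853 RPKM at these times (4.96, adjusted p = 3.0e-10). LHCA8 had 2161, 363 and 52.9 RPKM, and its steps did not differ by the test (-0.17, adjusted p = 0.26). GAS28 was thus high at 24 h alone of these times, FBA1 low at 24 h alone, and LHCA8 lower at each time.

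Among regulators few calls were made. Of 49 tested transcription factors 2 rose and none fell (median -0.05, 0.10 with columns centred), with the basic leucine zipper factor Cre12.g510200, with 31.4 and 28.6 RPKM at 48 h, against 6.94 and 7.47 RPKM at 24 h. Of 30 tested cytochromes P450 and oxygenases 7 rose and 5 fell. CGL16 (Cre07.g342800) and CGL41 (Cre01.g030350), proteins conserved in green algae and plants that the files describe only as predicted, rose. CGL16 had 72.1 and 148 RPKM at 48 h, against 4.99 and 7.17 RPKM at 24 h. CGL41 had 31.3 and 52.6 RPKM at 48 h, against 5.34 and 3.91 RPKM at 24 h. Cre12.g559800, described as a glutathione S-transferase, had 6.23 and 8.14 RPKM at 48 h, against 94.4 and 131 RPKM at 24 h.

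Of the transcripts that rose 806 (76.5%) had neither a symbol nor a description, as had 1183 (55.8%) of those that fell, against 70.4% of all tested. The 3 highest levels among the transcripts that rose were those of DES6 and of Cre17.g700750, with 8445 and 8068 RPKM at 48 h, against 3848 and 3268 RPKM at 24 h, and Cre10.g418450, with 3360.4 and 4038 RPKM at 48 h, against 1162 and 1155 RPKM at 24 h, and the last 2 had no description in the files. Only 3 transcripts exceeded 5 RPKM in both 48 h columns and stayed under 1 RPKM in the other 16. CYP743B1 (Cre07.g354350), a cytochrome P450, had 5.91 and 9.58 RPKM at 48 h, against 0.561 and 0.762 RPKM at 24 h. Cre18.g748700 had 10.6 and 15.2 RPKM at 48 h, against 0.0628 and 0.192 RPKM at 24 h, and Cre02.g085500 had 5.70 and 32.5 RPKM at 48 h, against 0.0549 and 0.383 RPKM at 24 h; both were picked out for this course. They passed the filter through their 48 h level alone, so their call follows from how they were picked. The opposite course, under 1 RPKM in both 48 h columns and above 5 RPKM in the other 16, was found for 10 transcripts.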

How the data were processed

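Transcript abundance was measured by RNA sequencing on the Illumina HiSeq 2000 at 9 times, with 2 columns per time. The authors deposited RPKM values, a unit taken here from the values themselves because the header carries none. The submitters' processing notes name Bowtie. A Bowtie version, genome build, annotation, counter, filter or strand setting is not given in the sources used here. Transcript lengths were solved from the RPKM steps for 16289 transcripts (94.2%, median 2297 bases), giving whole reads within 0.05 of a read for at least 99.88% of values in every column. Tests used RPKM, not these reads. At the median length 1 read is 0.0199 and 0.0130 RPKM at 48 h and 0.0153 and 0.0268 RPKM at 24 h, and a 0 allows up to 3 reads (95% limit, counting error only).

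Transcripts with a mean of at least 1 RPKM at 48 h or 24 h were fitted on log2(RPKM + 1) with limma-trend (limma 3.58.1, R 4.3.3) across the 18 columns of the course, with terms for sampling time and for the duplicate number as a block (8 residual degrees of freedom). Benjamini-Hochberg adjustment ran over all 13646. The duplicate numbers pair the columns: over 36 pairs of times, same-numbered columns deviated together with r between 0.316 and 0.719 (0.461 for 48 h and 24 h). On simulated data with 200 changed genes among 13646, the fit of 48 h against 24 h made 3 false calls. It recovered 96% and 92% of genes changed by log2 values of -2 and -1.5, and 88% and 94% of those changed by 1.5 and 2. The simulated spread of a gene was independent between columns and the same at every time. In the data same-numbered columns deviated together and the 48 h duplicates were looser, so these rates may not carry over. Summaries used Python 3.11.15 with numpy 2.4.6 and pandas 2.3.3, and figures matplotlib 3.10.9.

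The comparison and its 52 gene lists, drawn by symbol or description, were chosen with earlier results of these data known; 36 matches were left out of lists because their description contradicted the list. Genes named are the 12 largest changes each way with a symbol, the 6 largest with a description alone, the 3 called with the highest mean RPKM each way, up to 6 largest each way of each list, all members of lists of at most 12 and all iron genes; the text names a subset and says where a gene was added. No sequences were used here. Some items are not reported here.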

Additional observations from a re-analysis of the deposited data

How the results depend on the processing

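The main counts were 1053 higher and 2120 lower. They were 588 and 1073 with a pseudocount of 5, 3981 and 5540 with no fold minimum, and 191 and 460 at 4-fold. Within 1.5 times of the main counts were those of median centring (1404 and 1661), quantile normalization (1538 and 1684), columns scaled to an equal sum (1018 and 2367), pseudocounts of 0.5 (1253 and 2472) and 0.1 (1473 and 2780), a filter of 5 RPKM (927 and 1695) and no filter (1052 and 2117). The fit with no replicate block gave 1028 and 2105; the 4 columns alone gave 1058 and 2127 with the block and 1042 and 2112 without it. Leaving out each of the 4 columns gave 931 to 1218 higher and 1857 to 2389 lower.

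The difference of steps, 962 higher and 4294 lower, became 2408 and 2197 with median centring, 2424 and 2396 with quantile normalization, 620 and 2381 with a pseudocount of 5, 1814 and 6737 with no fold minimum, and 287 and 1457 at 4-fold. Of transcripts that rose, 905 had both 48 h columns above all others; this was 513 with a pseudocount of 5, 2766 with no fold minimum and 180 at 4-fold. Of those that fell, 1341 lay below all others, against 786 with a pseudocount of 5 and 365 at 4-fold.

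Of 194 genes examined, 164 kept direction and call in every setting that left the 2-fold limit in place. Calls of single genes with no fold minimum or at 4-fold are not part of this count. Over these settings 3227 results were unchanged, 42 lost and 19 gained the call, and 2 turned direction. The 2 were PSAN (0.10 without 48 h duplicate 1, -0.76 without 48 h duplicate 2) and LHCBM8 (0.47 and -1.004 without the same columns). LCIB was not called with no replicate block; among low transcripts, GLN3, HCP4, PFR1, MMP4, PTB8, ELG6, FAP165, UBQ7 and NDA7 were not called with a pseudocount of 5, and Cre17.g700750 was at 0.94 after quantile normalization. Causes of these changes were not tested. With 2 columns per time, differences near the 2-fold limit and transcripts near 1 RPKM are the least certain.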
